A study of Mus musculus with 2 samples.

Results

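The genes described here are 10 signals that skin cells send to leukocytes and to their own neighbours. They are the neutrophil chemokines Cxcl1 and Cxcl2, the tissue chemokines Cxcl12, Cxcl14 and Cxcl16, the monocyte chemokine Ccl2, the chemokine Ccl20, the epithelial alarm cytokine Tslp, and Csf1 and Il34, the ligands of the macrophage receptor Csf1r. For each gene, chromatin accessibility was read in the peaks that lay within 500 bp of one of its transcription start sites, inside its body or within 20 kb of it. All 10 genes had such peaks, among 16163 protein-coding genes with a promoter region in both libraries. Together they had 159 merged regions of 369634, of which 113 held a peak from each library and are called shared regions here.

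Single-cell ATAC-seq, in which a transposase cuts open chromatin, had been run on cells of embryonic mouse back skin (E16.5). Each genotype was 1 library, Control and MOF cKO. The latter was labelled MOFfl/fl/K14Cre, in which Cre driven by the Krt14 promoter in epithelial cells deletes both floxed copies of the gene for the histone acetyltransferase MOF (Kat8). Cells of both libraries carried K14-H2BGFP, a green nuclear label under the same promoter, and by the labels sorted GFP-positive and GFP-negative cells were mixed at 5 parts to 1. The controls were wild-type or heterozygous littermates by the study's description, which gives no genotype for this library, and the study used both sexes without distinction and 1 pair of samples for this assay, with no sex stated for either library. Embryos were of mixed C57Bl/6J and CD-1 background. The dermis keeps its MOF gene in this cross, so that fibroblasts stand as the neighbouring cells and not as cells with the deletion. With 1 library per genotype no difference could be tested, and each interval below is a 95% interval that covers counting error only.

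Chemokines are small secreted proteins that bind receptors on leukocytes and draw them along a gradient. Keratinocytes and dermal fibroblasts make several of them at rest, and induce others, among them CXCL1, CXCL2, CCL2 and CCL20, through the transcription factors NF-kB and AP-1 when the barrier is injured. TSLP is released by stressed keratinocytes and acts on dendritic and other immune cells. CSF1 and IL-34 keep macrophages alive, and IL-34 from keratinocytes maintains Langerhans cells, the macrophage-like cells of the epidermis. Accessibility of such a gene says that its chromatin is open to the transposase and does not measure its RNA or protein.

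With 60 shallow Control barcodes set aside, 2481 cells of Control and 4348 of MOF cKO were grouped by accessibility, without the regions of the 10 genes, and named from marker promoters. There were 1384 Control and 2577 MOF cKO epithelial-like cells and 659 and 1249 fibroblast-like cells, with 46 and 282 immune-like, 19 and 69 mural-like and 9 and 93 endothelial-like cells. The other 364 Control cells (14.7%) and 78 MOF cKO cells (1.79%) took no name and enter no class value. Immune-like cells lay in cluster 10 (24 Control and 246 MOF cKO cells) and cluster 16 (22 and 36). The makeup of that class thus differed between the libraries. The 10 epithelial markers summed to 363 CPM (Control) and 298 CPM (MOF cKO) in the epithelial-like class and to 41.6 and 43.4 CPM in the fibroblast-like class, where CPM is transposition sites per 1000000 sites of the class in shared regions. The 10 fibroblast markers summed to 413 and 377 CPM in fibroblast-like cells and to 133 and 106 in epithelial-like cells. The 9 immune markers with a value summed to 37.0 and 43.4 CPM in epithelial-like, 46.1 and 47.6 in fibroblast-like and 467 and 461 in immune-like cells. In the MOF cKO endothelial-like cells the epithelial markers reached 266 CPM, so that this class was mixed and enters only the likeness of promoters at the end. The libraries shared 21 barcodes. Epithelial-like cells of the 2 genotypes lay in different clusters: clusters 1, 3 and 11 held 1383 of the Control cells and 39 of the MOF cKO cells. No epithelial cluster met the markers of basal, suprabasal or hair follicle cells, so cell states within the epidermis were not compared. The promoter of Kat8, which the deletion does not remove and which checks nothing, had 50.6 CPM (Control) and 37.9 CPM (MOF cKO) in epithelial-like cells.

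At the promoters, the interval of the change, log2(MOF cKO / Control) of CPM, in epithelial-like cells lay above 0 at 4 of the 10 genes and below 0 at another 4, and in fibroblast-like cells above 0 at 6 and below 0 at none. Of these, Csf1 turned from −0.20 to 0.01 (−0.49 to 0.52) in epithelial-like cells thinned to 5000 sites each, and Cxcl14 from 0.22 to −0.06 (−0.22 to 0.11) in the fibroblast-like class as sites per cell. In epithelial-like cells Ccl2 and Ccl20 were up 2-fold or more, and so were Cxcl1, Cxcl2, Cxcl16 and Ccl20 in fibroblast-like cells. The 2 genes of 10 in epithelial-like cells stood against 2.33% of all promoters up by that much, and the 4 of 10 in fibroblast-like cells against 1.85%. In fibroblast cluster 5, which held cells of both genotypes in like number, Cxcl16 stayed above 2-fold (1.29), and Cxcl1 and Cxcl2 changed by 0.80 and 0.12. Ccl20 had 4 and 8 sites there, under the minimum of 20, and the median over the other promoters was 0.18. No promoter of the 10 was down 2-fold in either class, where 2.29% and 0.779% of all promoters were. The median change was 0.03 in the epithelial-like class and 0.53 in the fibroblast-like class, while the median over all promoters was −0.41 and −0.03. Changes at promoters of epithelial-like cells are therefore also given relative to that general fall. Scaling to other totals moved all epithelial values together, by −0.15 with the sites in all peaks of each library and by 0.15 with median-of-ratios size factors.

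**Figure D1:**
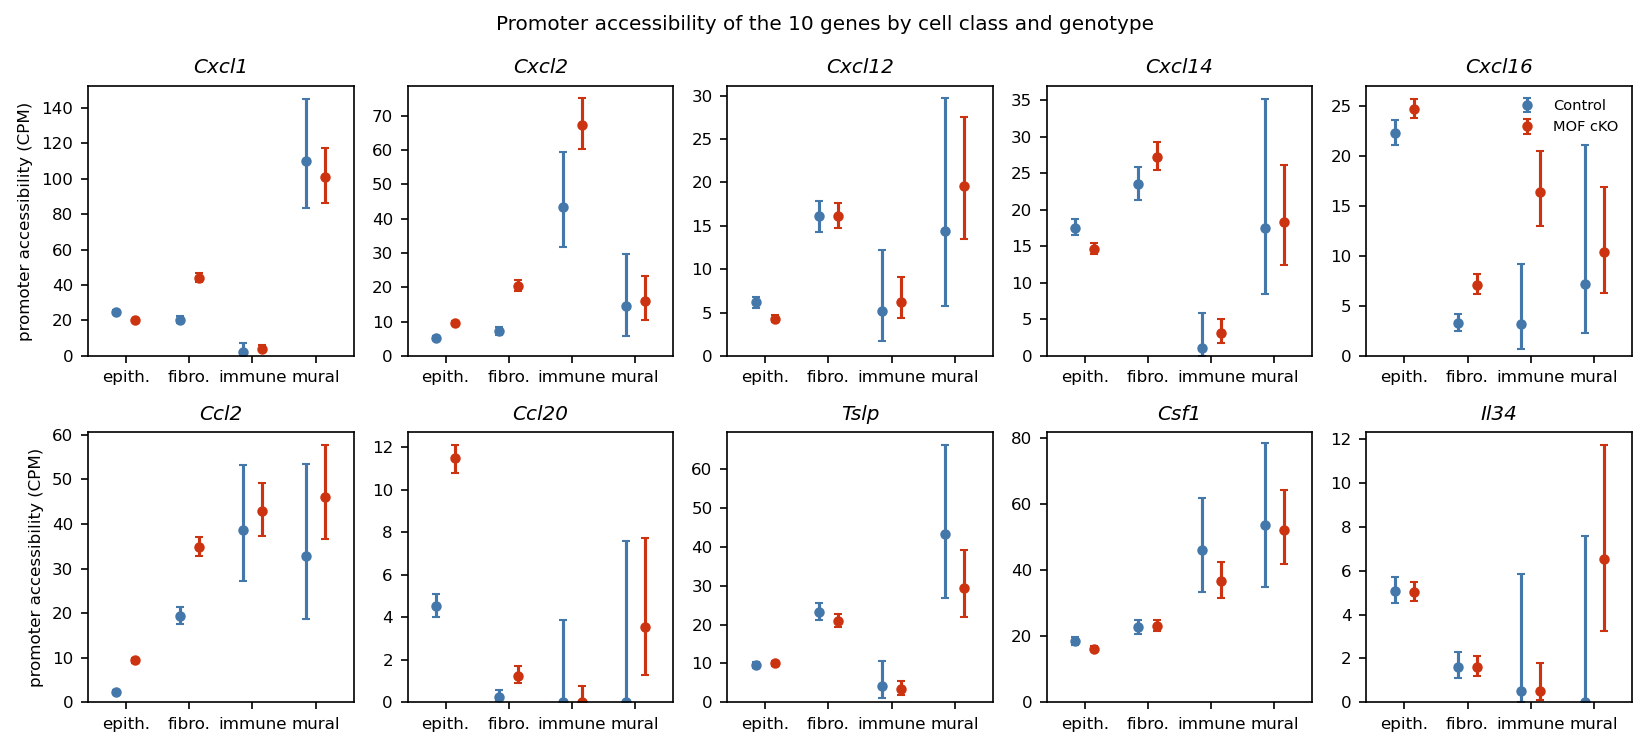
Promoter accessibility in CPM (vertical axis, scale set per gene) of each gene in 4 cell classes (horizontal axis), with 1 point per library and exact Poisson 95% intervals that cover counting error only. Ccl20 and Cxcl16 were highest in epithelial-like cells, Cxcl1 in mural-like cells, Cxcl2 in immune-like cells, and Ccl2 lay lowest in Control epithelial-like cells at 2.38 CPM.

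Ccl20, the ligand of CCR6 on Langerhans cell precursors and lymphocytes, was most open in the epithelium. Its promoter (chr1:83116176-83117130, over the first exon) had 4.54 CPM (4.01 to 5.12) in Control and 11.5 CPM (10.8 to 12.1) in MOF cKO epithelial-like cells. In fibroblast-like cells it had 0.252 CPM and 1.24 CPM, from 10 and 77 sites, and in immune-like cells no site in either library, for which the upper limits were 3.86 and 0.758 CPM. The epithelial intervals did not overlap, and the level in each genotype lay above that in every fibroblast-like cluster, the highest of which had 2.23 CPM. The change in epithelial-like cells was 1.34 (1.14 to 1.54), or 1.74 relative to all promoters.

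Around Ccl20 the whole neighbourhood was more open in MOF cKO epithelial-like cells taken as a class. Of its 10 shared regions, all of them nearer to Ccl20 than to any other protein-coding gene, 6 were up 2-fold and none was down, beside 16.8% and 12.4% of all shared regions. Each of the 10 had a counting interval above 0, and the smallest change was 0.42. The region that gained most lay 393 bp past the end of the gene (chr1:83119560-83120653) and went from 0.984 CPM in Control to 13.4 CPM in MOF cKO, a change of 3.77 (3.39 to 4.18). A region centred 4867 bp before the gene start went from 0.794 to 6.41 CPM (3.01), and a region at the far edge, 21258 bp after the start, was the most open of all in MOF cKO, at 25.0 CPM against 8.41 in Control. In fibroblast-like cells the region past the gene end stayed low, at 0.808 and 1.05 CPM, a change of 0.38 (−0.50 to 1.36). The gain was not even across MOF cKO epithelial-like clusters. At the region past the gene end, cluster 2 had 20.3 CPM, cluster 0 13.1 and cluster 4 5.61, while the 3 Control clusters lay between 0.666 and 1.30 CPM. At the region 14687 bp before the start the MOF cKO clusters ranged from 2.31 to 10.3 CPM and the Control clusters from 3.56 to 4.78. In the 39 MOF cKO cells of clusters 1, 3 and 11, 1 of the 10 regions was up 2-fold and 1 was down, beside 16.0% of all regions each way. These cells had only 2 to 20 sites per Ccl20 region, so the count cannot show whether the gain was absent.

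Sequences are shown for the promoters of the induced chemokines and for regions that gained or lost most, since these carry the pattern that the text returns to. Capitals mark AP-1 words (TGACTCA or its reverse complement TGAGTCA) and matches to the NF-kB consensus, searched on both strands with overlapping matches merged. Promoters are the 250 bases before the gene start from RefSeq on GRCm38.p6, at chr1:83116516-83116765 for Ccl20, chr5:90890995-90891244 for Cxcl1 and chr5:90903649-90903898 for Cxcl2, all on the plus strand.
Ccl20 promoter: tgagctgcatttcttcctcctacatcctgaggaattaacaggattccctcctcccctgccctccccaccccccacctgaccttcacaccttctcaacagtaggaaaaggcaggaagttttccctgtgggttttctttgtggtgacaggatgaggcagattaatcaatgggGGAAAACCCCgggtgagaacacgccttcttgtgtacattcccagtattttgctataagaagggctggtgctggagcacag
Cxcl1 promoter: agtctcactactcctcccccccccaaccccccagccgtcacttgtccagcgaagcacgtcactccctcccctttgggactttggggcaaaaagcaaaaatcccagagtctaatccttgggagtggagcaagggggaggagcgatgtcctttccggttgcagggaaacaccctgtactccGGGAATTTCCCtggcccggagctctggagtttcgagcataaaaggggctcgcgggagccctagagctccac
Cxcl2 promoter: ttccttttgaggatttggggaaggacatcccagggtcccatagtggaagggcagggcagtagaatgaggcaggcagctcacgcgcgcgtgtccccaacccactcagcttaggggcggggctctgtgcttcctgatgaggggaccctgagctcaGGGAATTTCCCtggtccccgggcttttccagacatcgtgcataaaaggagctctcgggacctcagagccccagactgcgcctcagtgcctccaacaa

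Each of the 3 promoters held an NF-kB match and no AP-1 word. Of the 10 genes, 6 were found in the RefSeq promoter table, and Cxcl16, Ccl2, Tslp and Il34 were not. Among the 6, the 300 bases from 250 before to 50 after the start held an NF-kB match at Cxcl1, Cxcl2, Ccl20 and Csf1 and an AP-1 word at none. Over all 27025 promoters of the table, 4.35% held an NF-kB match and 5.17% an AP-1 word. A match describes the letters and does not show that a factor was bound.

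The next sequences are windows of 200 bases at the centre of 4 regions outside promoters and exons, on the plus strand of GRCm38.p6. They lie at chr1:83120007-83120206 (Ccl20), chr11:70467924-70468123 (Cxcl16), chr3:107776236-107776435 (Csf1) and chr13:56290093-56290292 (Cxcl14). The first 3 are regions that gained and the last one lost most of its accessibility.
Ccl20, past the gene end: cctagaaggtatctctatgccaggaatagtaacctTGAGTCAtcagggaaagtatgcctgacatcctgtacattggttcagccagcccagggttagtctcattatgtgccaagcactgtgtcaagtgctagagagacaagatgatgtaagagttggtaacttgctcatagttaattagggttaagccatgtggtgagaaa
Cxcl16, upstream: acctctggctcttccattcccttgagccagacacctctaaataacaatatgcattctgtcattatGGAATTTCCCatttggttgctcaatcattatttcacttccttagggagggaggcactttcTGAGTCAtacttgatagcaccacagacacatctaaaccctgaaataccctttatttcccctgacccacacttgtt
Csf1, upstream: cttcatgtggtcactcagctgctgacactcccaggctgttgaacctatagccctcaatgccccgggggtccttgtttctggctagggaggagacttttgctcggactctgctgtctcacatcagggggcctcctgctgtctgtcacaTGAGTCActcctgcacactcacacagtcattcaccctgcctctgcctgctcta
Cxcl14, gene body: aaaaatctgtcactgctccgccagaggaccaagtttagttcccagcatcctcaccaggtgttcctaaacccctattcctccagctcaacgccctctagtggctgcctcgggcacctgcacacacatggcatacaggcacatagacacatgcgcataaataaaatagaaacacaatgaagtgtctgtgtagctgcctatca

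An AP-1 word stood in each of the 3 gaining windows and was not in the losing one, but the windows were chosen with their values and letters known. Of the regions with the highest epithelial change at each gene by the rule for named regions, those of Cxcl1, Cxcl2, Cxcl16, Ccl2, Ccl20 and Il34 held such a word in the central 500 bp, and those of Cxcl12, Cxcl14, Tslp and Csf1 did not. Over the 101 shared regions of the 10 genes that are no promoter of any of them, 16 of the 26 that were up 2-fold in epithelial-like cells held an AP-1 word in the central 500 bp (61.5%). None of the 11 that were down 2-fold held one, and 11 of the 64 within 2-fold did (17.2%). This is the pattern of the genome at large in epithelial-like cells of these libraries. Of all distal regions, more than 2000 bp from any start site, 56.0% of those up 2-fold, 5.08% of those down 2-fold and 21.6% of all held an AP-1 word. In fibroblast-like cells 7 of 22 gaining regions of the 10 genes held one (31.8%), near the 20 of 70 within 2-fold (28.6%). Of all distal regions there, 42.0% of those gaining and 19.9% of those within 2-fold held one. NF-kB matches stood in 5 of the 26 gaining regions in epithelial-like cells (19.2%) and in 6 of the 22 in fibroblast-like cells (27.3%), where the shares among all gaining distal regions were 7.75% and 9.86%. Of all tested regions of the 10 genes that are no promoter of them, 12.9% and 12.4% held such a match in the 2 classes, beside 6.59% and 6.68% of all distal regions. For both words the sets are unlike, since the former includes regions within 2000 bp of a start site, such as one over the Med11 start. Among those within 2-fold the shares were 12.5% and 8.57%, and none of the 11 and 5 regions that were down held one, where 4.91% and 5.27% of all falling distal regions did.

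Ccl2, which recruits monocytes through CCR2, had the largest promoter change of the 10 genes in epithelial-like cells. The promoter (chr11:82035052-82035970, over the first exon) had 2.38 CPM (2.0 to 2.81) in Control and 9.41 CPM (8.83 to 10.0) in MOF cKO, a change of 1.98 (1.72 to 2.25), above 99.3% of all promoters. Fibroblast-like cells had 19.4 CPM and 34.8 CPM, a change of 0.85 (0.68 to 1.02), but 29.8 and 28.5 CPM in cluster 5 (−0.06, −0.35 to 0.23). Immune-like cells had 38.7 and 42.9 CPM with intervals that overlapped. Even in MOF cKO the epithelial level thus stayed below that of Control fibroblast-like cells. Among the Control epithelial-like clusters the promoter ranged from 0.643 to 10.7 CPM, the highest being cluster 11, one of the 2 clusters with the highest doublet scores. Cluster 11 held 98 cells and 190 of the 276 Control sites, and without clusters 11 and 15 the change was 3.38 (2.93 to 3.85), so that its size rested on these cells and its direction did not. The fibroblast marker sum in epithelial-like cells was lower in MOF cKO (106 CPM) than in Control (133 CPM), and the immune marker sum was higher (43.4 against 37.0 CPM). Their part in the Ccl2 values was not tested.

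Upstream of Ccl2, regions were more open along with the promoter in epithelial-like cells. The region 4931 bp before the gene start (chr11:82030174-82031107) went from 1.08 CPM to 10.0 CPM, a change of 3.21 (2.83 to 3.59), the largest at Ccl2. In immune-like cells it had 0.523 and 2.77 CPM and in fibroblast-like cells 0.202 and 0.419, so this region was most open in MOF cKO epithelial-like cells. The MOF cKO clusters lay at 13.2, 10.8, 5.26 and 4.59 CPM in clusters 0, 4, 15 and 2, and the Control clusters between 0.827 and 1.26 CPM. The region 2368 bp before the start went from 3.03 to 15 CPM (2.30) in epithelial-like cells, and was already open in Control fibroblast-like cells at 33.4 CPM, with 50.2 CPM in MOF cKO (0.59, 0.45 to 0.72) and a change of 0.05 (−0.17 to 0.28) in fibroblast cluster 5. In all, 7 of the 14 Ccl2 regions were up 2-fold in the epithelial-like class, beside 16.8% of all, and 8 in the fibroblast-like class, beside 11%. In cluster 5, 3 of the 11 that could be read were up by that much, beside 6.69% of all, and the Ccl11 promoter was among the 3. Of the 14 regions only 7 lay nearer to Ccl2 than to any other protein-coding gene. Downstream, where the neighbouring chemokine genes Ccl7 and Ccl11 lie, levels were under 1.5 CPM in epithelial-like cells. There the fibroblast-like cells had the larger values, among them 3.18 and 7.50 CPM (1.24) at the region nearest to Ccl7.

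Cxcl1 and Cxcl2 are neighbours on chromosome 5 and share 7 of their regions, so their flanks are not independent of each other. Both encode ligands of the neutrophil receptor CXCR2. The Cxcl1 promoter (chr5:90890729-90891689) had 24.7 CPM (23.4 to 26.0) in Control and 20.2 CPM (19.3 to 21.1) in MOF cKO epithelial-like cells. In fibroblast-like cells it had 20.2 CPM (18.3 to 22.3) and 44.2 CPM (41.9 to 46.6). The epithelial change was −0.29 (−0.39 to −0.19), less than the general fall of promoters (0.11 relative to them), and the fibroblast change 1.13 (0.97 to 1.29). Mural-like cells had the highest levels, 110 CPM from 19 Control cells and 101 CPM from 69 MOF cKO cells.

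The Cxcl2 promoter (chr5:90903233-90904009) was higher in MOF cKO in both classes, with 5.15 and 9.61 CPM in epithelial-like cells (0.90, 0.71 to 1.09) and 7.12 and 20.5 CPM in fibroblast-like cells (1.53, 1.26 to 1.80), with a change of 0.12 (−0.37 to 0.63) in fibroblast cluster 5. It was most open in immune-like cells, at 43.4 CPM (31.6 to 59.4) and 67.4 CPM (60.3 to 75.1). The makeup of that class differed between the libraries, and its part in these values was not tested. While the epithelial Cxcl1 promoter did not gain, its upstream flank did. The region 9185 bp before the Cxcl1 start (chr5:90881591-90882521) went from 1.64 to 12.7 CPM in epithelial-like cells (2.96, 2.66 to 3.27), and the region 14893 bp before it from 2.34 to 12.1 CPM (2.37). The first of these was also open in immune-like cells, at 20.4 and 28.4 CPM. It was evenly high in the main MOF cKO epithelial clusters, at 13.5, 13.4 and 11.3 CPM in clusters 0, 2 and 4, against at most 2.22 CPM in a Control cluster. Between the 2 genes, the region chr5:90899998-90901102 moved in opposite ways. It had 8.11 and 12.3 CPM in epithelial-like cells (0.60, 0.44 to 0.75) and 10.5 and 5.00 CPM in fibroblast-like cells (−1.07, −1.39 to −0.77).

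**Figure D2:**
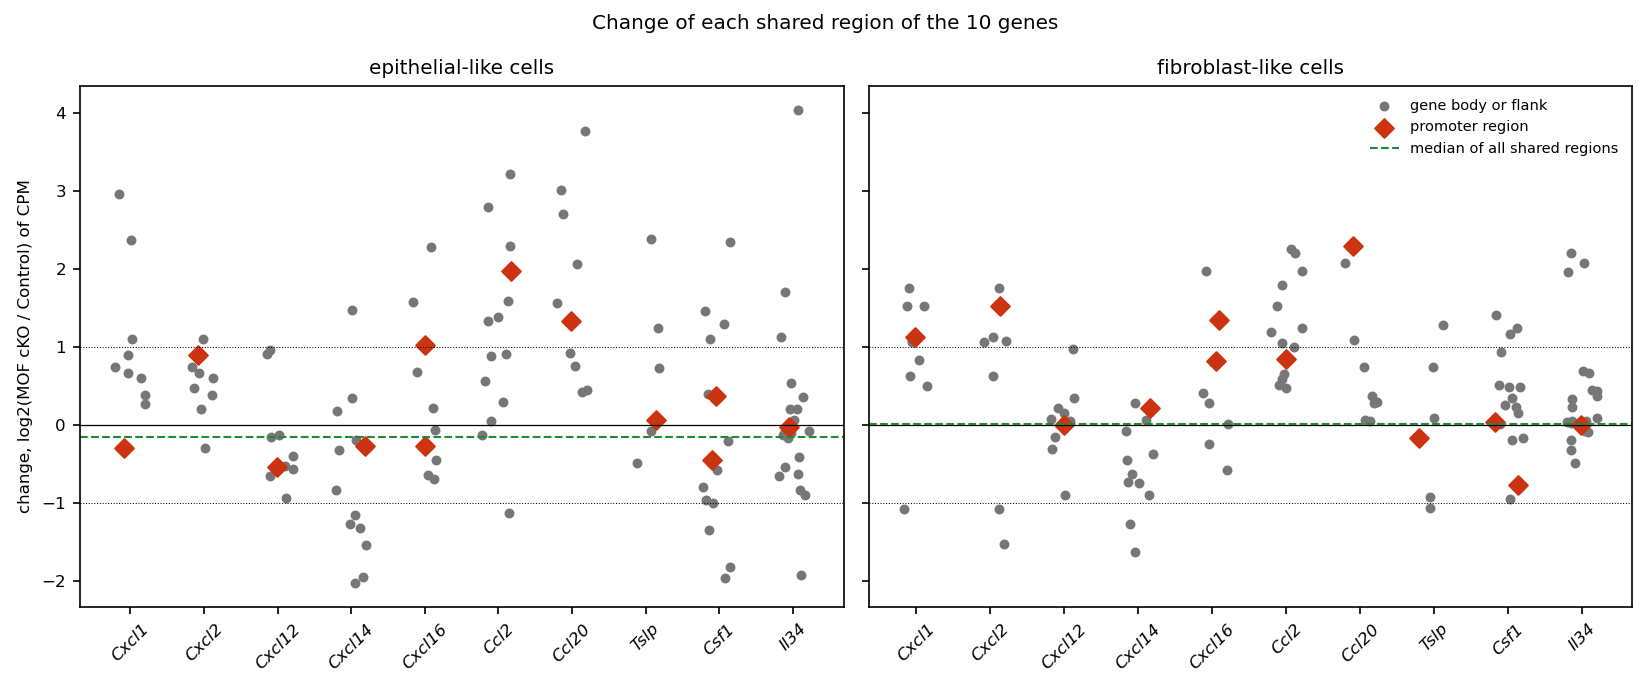
Change of every shared region (log2 of MOF cKO over Control CPM, vertical axis) by gene in epithelial-like and fibroblast-like cells, with promoter regions as red diamonds, other regions in grey, the median of all shared regions dashed and 2-fold changes dotted. All 10 Ccl20 points lie above 0 in epithelial-like cells, and 6 of the 13 Cxcl14 points lie at or below −1.

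Cxcl14, an epithelial chemokine made in resting skin, had lower accessibility in its surroundings in MOF cKO epithelial-like cells as a class. In epithelial-like cells 6 of its 13 regions were down 2-fold, beside 12.4% of all, and 1 was up, and the median over the 13 was −0.83. Its promoter (chr13:56295971-56296872) had 17.5 CPM in Control and 14.6 CPM in MOF cKO, a change of −0.26 (−0.38 to −0.15) that is 0.14 relative to all promoters. Several regions around it were down by more than the promoter. By the rule for named regions the largest fall was in the gene body (chr13:56289860-56290524, no exon), from 2.74 to 0.676 CPM (−2.02, −2.44 to −1.60). The 2 most open upstream regions, chosen after their values were seen, were centred 18840 bp and 14599 bp before the start and went from 18.1 to 4.71 CPM (−1.94) and from 17.0 to 7.13 CPM (−1.26). Both were epithelial, with 2.47 and 0.454 CPM in Control fibroblast-like cells. Beside the second lay a region with a peak from MOF cKO alone (chr13:56311718-56312353). That neighbour had 5.69 CPM in MOF cKO epithelial-like cells and has no Control value. In the 39 MOF cKO cells of clusters 1, 3 and 11 the region 18840 bp before the start was not lower (0.58, 0.04 to 1.07). Of the 13 regions 1 was up 2-fold and 2 were down in those cells, beside 16.0% of all regions each way.

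In the other direction, the region 8323 bp before the Cxcl14 start gained in epithelial-like cells, from 2.15 to 5.96 CPM (1.47, 1.19 to 1.76). That region was already open in fibroblast-like cells, at 13.8 CPM in Control and 14.5 CPM in MOF cKO. In fibroblast-like cells other places of the locus were lower in MOF cKO. A region over an exon (chr13:56289080-56289757) had 6.59 and 2.15 CPM (−1.62, −2.06 to −1.18), but 0.805 and 1.2 CPM in cluster 5 (0.57, −1.05 to 2.47, from 12 and 15 sites), and over the clusters it ranged from 0.805 to 11.1 CPM in Control and from 1.05 to 8.55 CPM in MOF cKO. The region 17743 bp before the start had 10.5 and 4.36 CPM (−1.27) and in cluster 5 3.42 and 0.639 CPM (−2.42, −4.43 to −0.92). The fibroblast promoter had 23.5 and 27.3 CPM (0.22, 0.05 to 0.38).

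Cxcl12, which binds CXCR4 and is chiefly a product of dermal fibroblasts, was the most even of the 10 genes by the count of shared regions past 2-fold. None of its 10 shared regions was up or down 2-fold in either class. Another 5 had a peak from MOF cKO alone, among them a gene body region with 5.91 CPM in epithelial-like cells. The Cxcl12 promoter (chr6:117168191-117169087) had 6.16 and 4.26 CPM in epithelial-like cells, a change of −0.53 (−0.74 to −0.33) or −0.13 relative to all promoters. This was the largest promoter fall of the 10 genes in that class. In fibroblast-like cells the promoter had 16.1 CPM in both libraries (0.00, −0.20 to 0.21). In the epithelium the body of the gene followed, with 4.09 and 2.78 CPM at 1070 bp from the start and 5.83 and 4.42 CPM at 5533 bp. The fibroblast changes over the 10 regions lay between −0.90 and 0.98.

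Cxcl16, a membrane-bound chemokine that is cleaved to a soluble ligand of CXCR6, has 2 promoter regions that moved apart. The region over its annotated gene start (chr11:70459689-70460534) had 5.15 and 10.5 CPM in epithelial-like cells (1.03, 0.84 to 1.22) and 1.69 and 4.31 CPM in fibroblast-like cells (1.35, 0.78 to 1.92). The other, centred 1049 bp inside the gene at a start site of another transcript, had 17.1 and 14.2 CPM (−0.27, −0.39 to −0.15) and 1.59 and 2.81 CPM. Summed, the promoter changed by 0.15 (0.05 to 0.25) in epithelial-like and by 1.12 (0.71 to 1.54) in fibroblast-like cells. Immune-like cells, whose clusters were split unevenly between the libraries, had 3.14 CPM from 6 sites in Control and 16.4 CPM from 160 sites in MOF cKO.

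Upstream of Cxcl16 the regions lie nearer to the start of Zmynd15 than to Cxcl16, and the peaks cannot say which gene they serve. The region 8039 bp before the Cxcl16 start, printed above, had 640 sites (5.52 CPM) in epithelial-like cells of Control and 3398 in those of MOF cKO, a change of 1.58 (1.41 to 1.76). In fibroblast-like cells it had 1.59 and 6.27 CPM (1.98, 1.42 to 2.55), and in cluster 5 the change was 0.74 (−0.09 to 1.53). The region 13523 bp before it went from 1.39 to 6.73 CPM in epithelial-like cells (2.28, 1.94 to 2.62). It had 0.480 and 0.323 CPM in fibroblast-like cells, from 19 and 20 sites (−0.57, −2.07 to 0.77), and 5.75 and 1.95 CPM in immune-like cells, from 11 and 19 sites.

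Tslp has a start region and an upstream region that behaved differently. The only shared region within 500 bp of an annotated start lay inside the gene (chr18:32816344-32817245, centred 1411 bp from the gene start), and had 9.58 and 10.1 CPM in epithelial-like cells (0.07, −0.08 to 0.22) and 23.3 and 20.9 CPM in fibroblast-like cells (−0.16, −0.33 to 0.02). The region 844 bp before the gene was open in epithelial-like and mural-like cells. It had 20.7 CPM in Control and 34.3 CPM in MOF cKO epithelial-like cells (0.73, 0.63 to 0.82), 34.0 and 20.8 CPM in mural-like cells (33 and 70 sites), and 1.82 and 4.42 CPM in fibroblast-like cells (1.28, 0.74 to 1.85). In fibroblast cluster 5 the change was 0.07 (−0.93 to 0.99). Further out, the region 3537 bp before the start went from 1.66 to 8.69 CPM in epithelial-like cells (2.39, 2.09 to 2.71). In the MOF cKO clusters 0, 2, 15 and 4 this region had 11.5, 6.75, 6.51 and 5.28 CPM, and no Control cluster reached 2 CPM. Fibroblast-like cells had 0.732 and 0.387 CPM there.

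**Figure D3:**
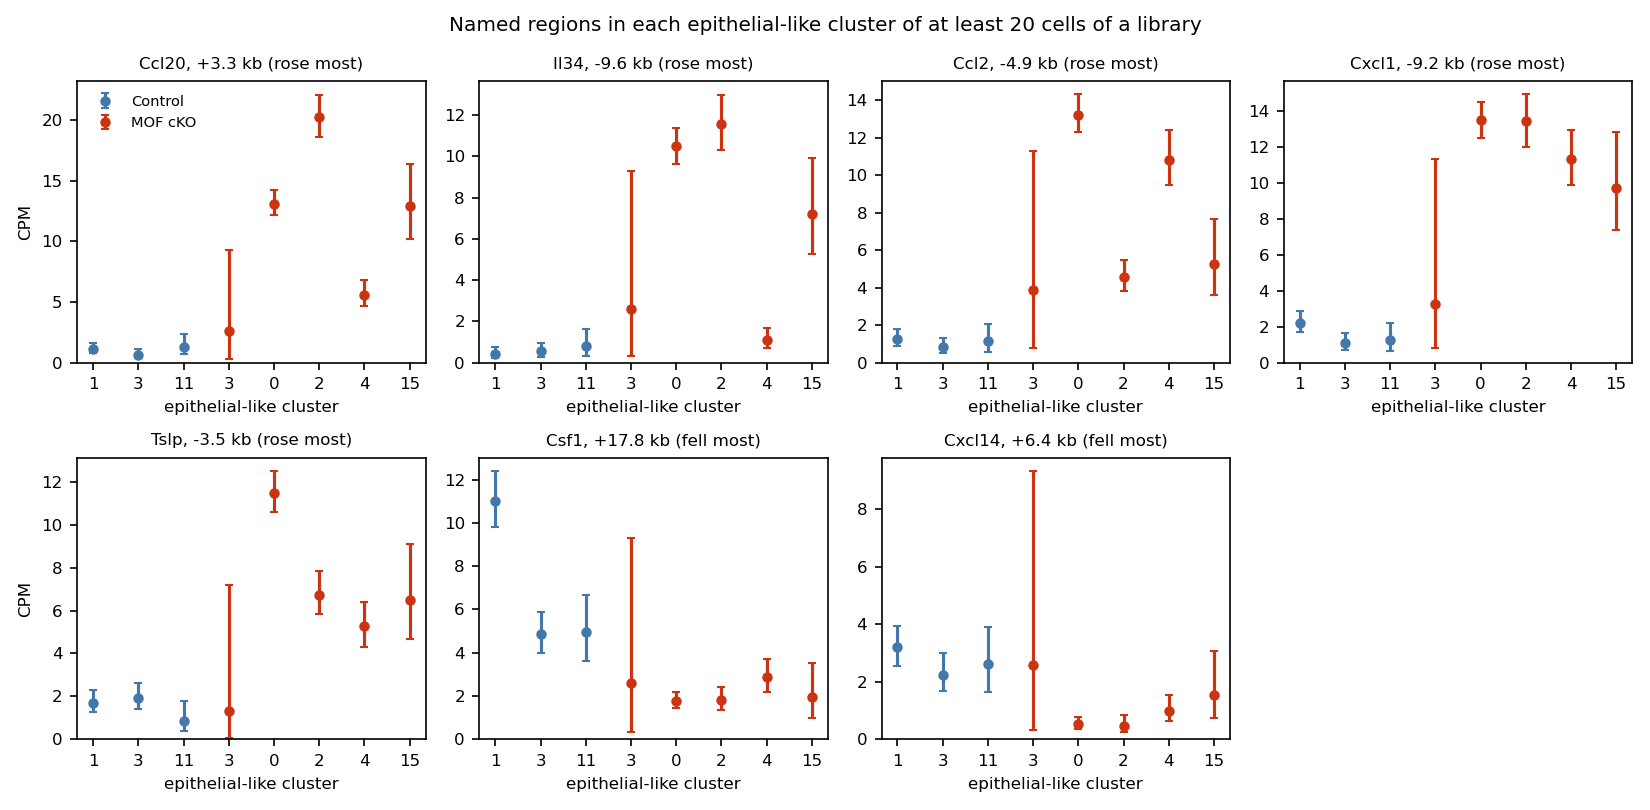
Accessibility in CPM (vertical axis) of the named regions in each epithelial-like cluster (horizontal axis), Control in blue and MOF cKO in red, with exact Poisson 95% intervals. Cluster 3 appears for both libraries, with 27 MOF cKO cells. At Ccl20, Ccl2, Cxcl1 and Tslp the clusters 0, 2, 4 and 15 of MOF cKO lie above all Control clusters, and at Il34 cluster 4 does so by little, at 1.11 CPM.

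Csf1 had 4 of 17 regions up 2-fold and 3 down in epithelial-like cells, shares near the 16.8% and 12.4% of all shared regions. Its promoter, the sum of a region at the gene start and one at an internal start, had 18.5 and 16.1 CPM in epithelial-like cells (−0.20, −0.31 to −0.09, and 0.21 relative to all promoters, but 0.01 when thinned) and 22.8 and 23.2 CPM in fibroblast-like cells (0.02, −0.15 to 0.20). The largest loss was in the gene body over an exon (chr3:107742217-107743121), from 7.77 to 2.01 CPM (−1.95, −2.19 to −1.71). In Control cluster 1 this region had 11 CPM and in clusters 3 and 11 4.85 and 4.97, and the 4 MOF cKO clusters of 79 or more cells lay between 1.77 and 2.87 CPM. The strongest region of the locus in MOF cKO epithelial-like cells was 15866 bp upstream of the start (chr3:107775854-107776816). It went from 12.4 to 30.6 CPM in them (1.30, 1.18 to 1.42), from 7.42 to 17.6 CPM in fibroblast-like cells (1.25, 0.98 to 1.52), and from 24.7 to 48.0 CPM in mural-like cells. In fibroblast cluster 5 its change was 0.41 (−0.02 to 0.85).

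Right beside it, the region centred 14777 bp upstream fell in epithelial-like cells, from 8.77 to 4.50 CPM (−0.96), and was higher in fibroblast-like cells, from 1.99 to 4.50 CPM (1.17), with a change of 0.25 (−0.61 to 1.11) in cluster 5. Peak edges in such adjoining regions can differ between the libraries, and their part in these changes was not tested. Downstream of the gene, the region 26987 bp after the start went from 0.371 to 1.88 CPM in epithelial-like cells (2.34, 1.67 to 3.02), and the region 31722 bp after it had 0.889 and 0.253 CPM there. In fibroblast-like cells that region had 6.74 and 3.52 CPM (−0.94, −1.32 to −0.57), but 5.10 and 5.27 CPM in cluster 5 (0.05, −0.67 to 0.76).

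**Figure D4:**
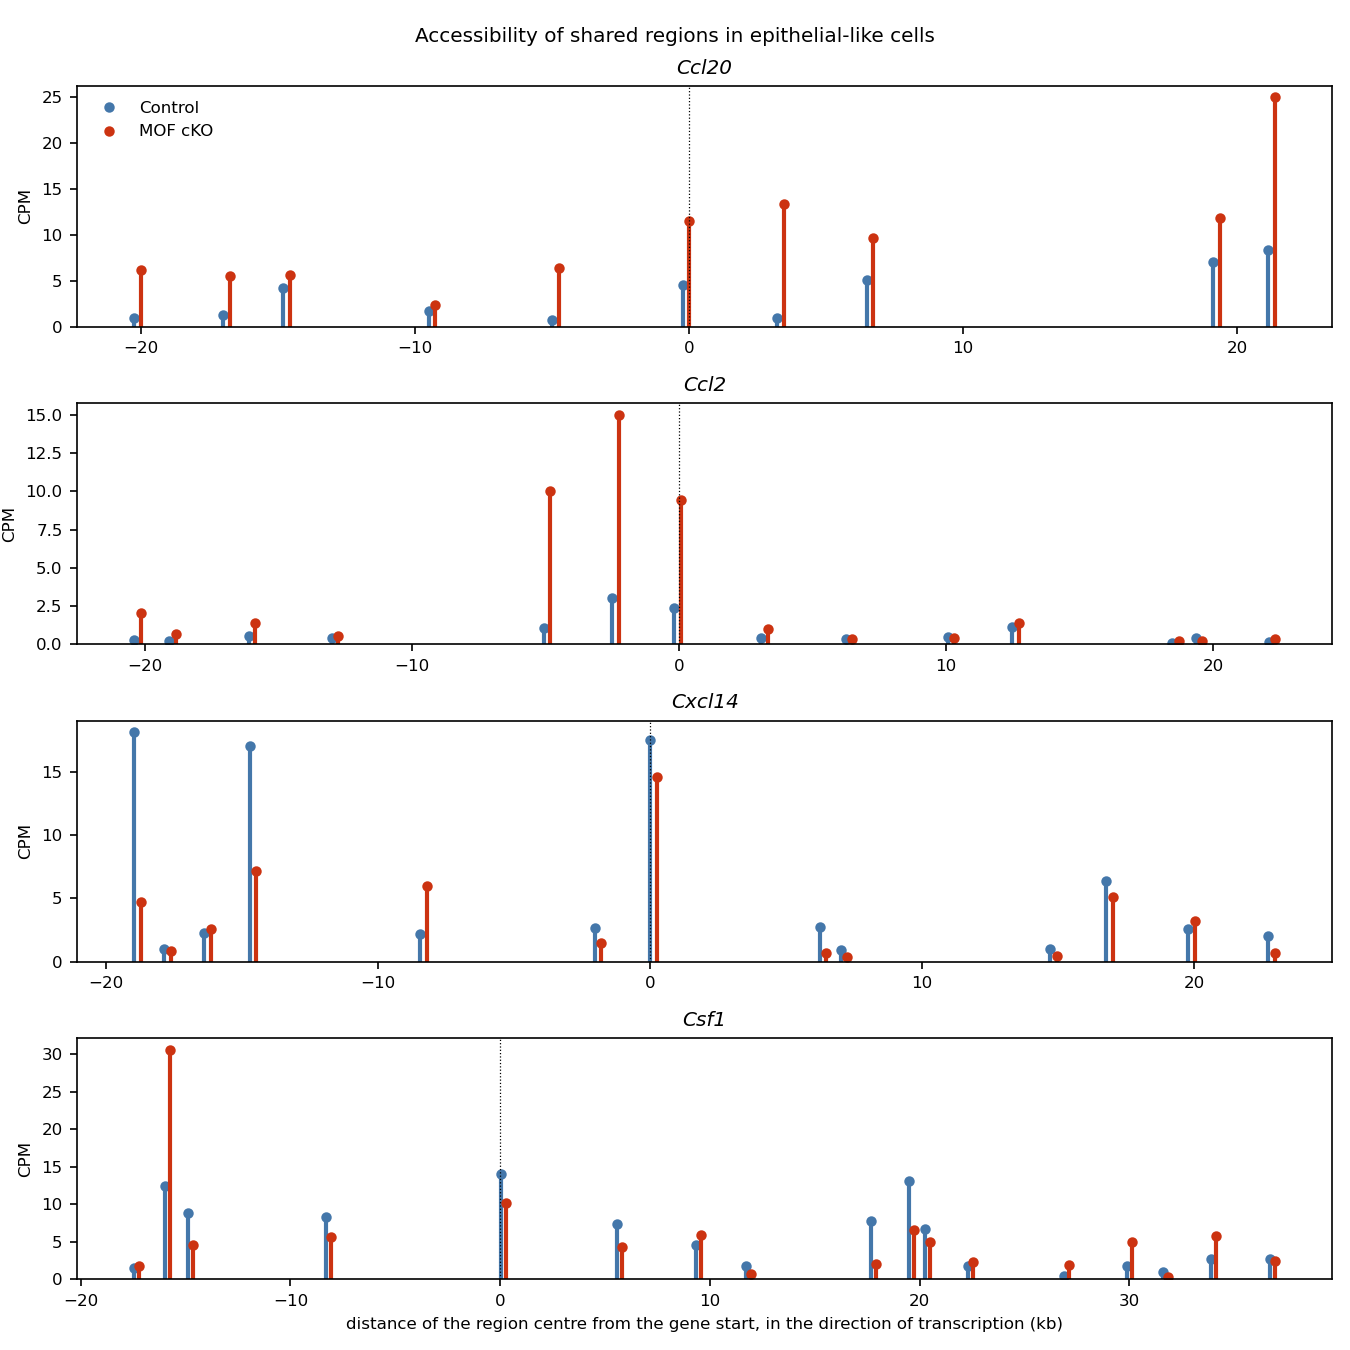
Accessibility in CPM (vertical axis) of the shared regions of Ccl20, Ccl2, Cxcl14 and Csf1 in epithelial-like cells, Control in blue and MOF cKO in red, by the distance of each region's centre from the gene start in kb (horizontal axis, positive in the direction of transcription). Ccl20 and Ccl2 are higher in MOF cKO across the locus and upstream of the start respectively, the 2 tall upstream Cxcl14 regions are lower, and Csf1 holds changes both ways.

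Il34 had the largest single gain of all 113 regions, and a promoter that did not differ beyond counting error. The promoter (chr8:110805424-110806257) had 5.08 CPM (4.53 to 5.71) and 5.03 CPM (4.6 to 5.48) in epithelial-like cells (−0.02, −0.23 to 0.19), and 1.62 and 1.61 CPM in fibroblast-like cells. The region 9635 bp before the gene start (chr8:110815106-110816012) went from 0.526 to 8.69 CPM in epithelial-like cells, a change of 4.04 (3.51 to 4.59), and had 0.984 and 1.34 CPM in fibroblast-like cells. This gain was carried by some of the cells. It reached 10.5, 11.6 and 7.22 CPM in MOF cKO clusters 0, 2 and 15, but 1.11 CPM in cluster 4, beside 0.422 to 0.791 CPM in the Control clusters. Within the gene, the region 2229 bp from the start was higher in MOF cKO in both classes, with 3.89 and 8.54 CPM in epithelial-like cells (1.13) and 0.732 and 3.10 CPM in fibroblast-like cells (2.08, 1.24 to 2.92). In fibroblast cluster 5 its change was 1.11 (−0.17 to 2.60). The most open Il34 region in epithelial-like cells, 51038 bp inside the gene, differed little, with 24.6 and 28.4 CPM (0.21, 0.11 to 0.30).

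Over all 113 shared regions, 29 (25.7%) were up 2-fold or more and 11 (9.73%) down in epithelial-like cells, where 16.8% and 12.4% of all shared regions were. The ratio of gains to losses depended on the scaling, with 25 up and 15 down (14.8% and 16.4% of all shared regions) when CPM was taken of the sites in all peaks of each library, and 35 up and 9 down (19.3% and 9.19% of all) with median-of-ratios factors. By place, 24 of 77 flank regions were up and 6 down, 3 of 12 promoter regions were up and none down, and 2 of 24 regions inside gene bodies were up and 5 down. Of all gene promoters, with the regions of each gene summed, 2.33% were up and 2.29% down. Of all shared regions more than 2000 bp from any gene start these shares were 18.7% and 13.7%. Shares of single promoter regions and of regions inside gene bodies were not computed over all genes. Ccl20, Ccl2 and Csf1 held 6, 7 and 4 of the regions up 2-fold, and Cxcl14 held 6 of the 11 down. When only the 91 regions nearest to the gene itself were counted, 25 were up and 9 down.

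In fibroblast-like cells 109 of the regions had the minimum of 20 sites over both libraries. Of these, 26 (23.9%) were up 2-fold and 5 (4.59%) down, beside 11% and 7.15% of all shared regions. As sites per cell, without scaling to the total, 17 were up and 12 down, beside 6.86% and 12.6% of all shared regions on that scale. By gene, 8 of 14 regions of Ccl2, 6 of 10 of Cxcl1, 5 of 8 of Cxcl2 and 3 of 9 of Ccl20 were up in fibroblast-like cells. The 5 of Cxcl2 are all among the 6 of Cxcl1, since the 2 genes share regions. In cluster 5 alone the counts were 3 of 11, 0 of 9, 0 of 7 and 0 of 3. Down there were 1 region that Cxcl1 and Cxcl2 share and 2 of Ccl20. Of the 109 regions, 13 were up 2-fold in both classes (11.9%, beside 4.87% of all shared regions), 16 in the epithelial-like class alone (14.7%, beside 11.7%) and 13 in the fibroblast-like class alone (11.9%, beside 6.15%). Down by that much were 1 region in both classes, 9 in the former alone and 4 in the latter alone, which is 0.917%, 8.26% and 3.67% beside 1.92%, 10.6% and 5.23% of all. The difference between the classes was not tested.

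The fibroblast changes moved with the makeup of the class. Control cells lay mostly in clusters 5 and 8, with 289 and 329 cells, and MOF cKO cells mostly in clusters 6 and 7, with 475 and 443. In cluster 5 alone, which held 289 Control and 256 MOF cKO cells, 6 of 79 regions were up 2-fold and 5 down, where 6.69% and 11.1% of all regions were, so the count up there stood near the background. Within that cluster the promoters of Cxcl1 (31.1 and 54.1 CPM, 0.80, 0.55 to 1.05) and Cxcl16 (3.42 and 8.39 CPM, 1.29, 0.58 to 2.02) were still higher in MOF cKO. The promoters of Ccl2 (29.8 and 28.5 CPM, −0.06, −0.35 to 0.23) and Cxcl2 (9.79 and 10.6 CPM, 0.12, −0.37 to 0.63) differed by less than counting error. In cluster 7, of 31 Control and 443 MOF cKO cells, Ccl2 had 39.7 and 43.3 CPM, and in cluster 8, of 329 and 75 cells, 10.4 and 18.8 CPM. This comparison was added after the data were seen, and whether the shift between clusters is a change of state or of the cells captured cannot be told apart.

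**Figure D5:**
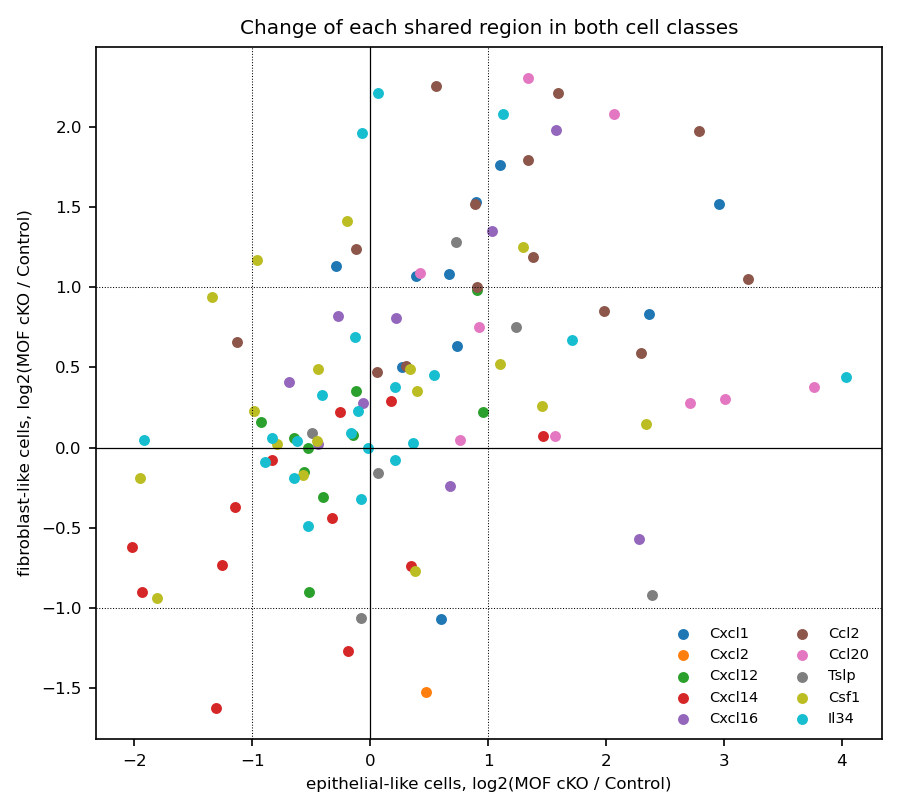
Change of each shared region (log2 of MOF cKO over Control CPM) in epithelial-like cells (horizontal axis) against fibroblast-like cells (vertical axis), coloured by gene, with dotted lines at 2-fold and a region of 2 genes drawn once. The 13 regions in the upper right corner were up 2-fold in both classes, and the largest epithelial gains, at Il34 and Ccl20, lie between 0 and 1 in fibroblast-like cells.

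Peaks called in 1 library alone have no value in the other and are given as they stand. The 10 genes had 7 regions with a peak from Control alone (4.40% of their 159) and 39 from MOF cKO alone (24.5%), below the 8.92% and 33.2% of all regions. Il34 had 13 of the MOF cKO regions, Cxcl12 and Tslp 5 each, Cxcl16 4, Ccl20 and Csf1 3 each, Cxcl1, Cxcl14 and Ccl2 2 each and Cxcl2 none. Of the region with most sites at each gene, the 3 highest were an Il34 region at chr8:110794449-110795358 with 5.96 CPM in epithelial-like and 3.26 CPM in fibroblast-like cells, a Cxcl12 region at chr6:117178153-117179054 with 5.91 and 0.790 CPM, and a Cxcl14 region at chr13:56311718-56312353 with 5.69 and 0.468 CPM. Of the Control regions the largest lay inside Cxcl1 (chr5:90892268-90892904), with 2.74 and 1.03 CPM.

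The receptors of these ligands were read at their promoters in the same cells. Of 11 listed receptors 5 had a promoter value. Csf1r, the receptor of CSF1 and IL-34, was up 2-fold in epithelial-like cells, from 2.28 to 7.27 CPM (1.67, 1.41 to 1.95), where 2.33% of all promoters were. Cxcr1 was down in fibroblast-like cells, from 1.06 to 0.419 CPM (−1.34, −2.46 to −0.27), where 0.779% of all promoters were. The median change over the 5 was −0.49 in the epithelial-like class and 0.20 in the fibroblast-like class, beside −0.41 and −0.03 over all promoters. Csf1r is a macrophage gene, and the immune marker sums of the classes are given above.

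Of 29 other chemokine genes 13 had a promoter value. None was up 2-fold in epithelial-like cells, where the median was 0.06 and Ccl28, a mucosal and epidermal chemokine, was down from 1.81 to 0.724 CPM (−1.32, −1.76 to −0.87). Of all promoters 2.33% were up and 2.29% down in that class. In fibroblast-like cells 7 of 13 were up, where 1.85% of all promoters were, and none was down, and the median was 1.01. Among the 7, Ccl3 had 44 sites and an interval that included 0 (−0.28 to 2.99). The 3 of them with most sites were the interferon-induced Cxcl10 (14.3 and 28.9 CPM, 1.01), the neutrophil chemokine Cxcl5 (4.34 and 12 CPM, 1.47) and Ccl7 (3.18 and 7.50 CPM, 1.24), whose promoter is also a flank region of Ccl2 and changed by 0.63 (−0.02 to 1.29) in cluster 5. The Ccl11 promoter, another of the 7 and also a flank region of Ccl2, went from 1.62 to 4.63 CPM (1.52, 0.96 to 2.12), and in cluster 5 it changed by 1.32 (0.55 to 2.12).

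Among 18 other alarm and growth factor genes, 17 had a value in epithelial-like cells and 2 were up 2-fold, beside 2.33% of all promoters. They were the antimicrobial peptide gene Defb14, from 2.41 to 10.7 CPM (2.15, 1.89 to 2.41), and S100a9, a subunit of calprotectin, from 5.48 to 11.6 CPM (1.08, 0.90 to 1.26). S100a8, the other calprotectin subunit gene, stayed within 2-fold, with 2.89 and 3.81 CPM (0.40, 0.13 to 0.66). In fibroblast-like cells S100a8 changed by −0.82 (−1.42 to −0.23). In fibroblast-like cells Camp, which encodes cathelicidin, went from 4.19 to 13.2 CPM (1.66, 1.32 to 2.02), and Defb14 passed 2-fold on 20 sites in all, with an interval that included 0, where 1.85% of all promoters were up by that much. The medians were 0.40 and 0.33. The 18 genes of the NF-kB pathway, from receptors' adaptors to the factor and its inhibitors, had no promoter up or down 2-fold in either class, with medians of −0.38 and 0.06 that lay near those of all promoters.

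As a description of level, the promoter whose pattern over 5 classes in 2 libraries was most like that of each gene was found by Pearson's r of log2(CPM + 1) over these 10 values, which share libraries and depth and of which 2 come from the mixed endothelial-like class. It was Cldn18 for Ccl20 (r = 0.987), Bmp4 for Cxcl14 (0.987), Zbtb6 for Csf1 (0.985), Gdf6 for Tslp (0.982), Prkca for Cxcl12 (0.981), Kcnc1 for Cxcl1 (0.972), Scd4 for Ccl2 (0.953), Myoz1 for Il34 (0.951), Lrmda for Cxcl2 (0.949) and Rbm47 for Cxcl16 (0.900).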

How the data were processed

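Per the labels, the authors used cellranger-atac 2.0.0 with mm10 (GRCm38). The deposited counts are raw transposition sites per peak and cell barcode, and each library has its own peak and cell calls. The Control library held 169641002 sites over 2541 barcodes and the MOF cKO library 324310197 over 4348. Both peak lists were merged, and regions with a peak from each library (214119) were compared. Each library was counted over its own peaks within a region, so the bases counted can differ between the libraries. Barcodes with at least 1000 sites were clustered (50000 regions, 28 singular vectors, Leiden resolution 1) and named from marker promoters. The rule that leaves shallow clusters without a name was tightened after the data were seen. Doublets were scored and kept.

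Sites were summed by class and library and scaled to 1000000 sites in shared regions (CPM). Changes are log2(MOF cKO / Control) for features with at least 20 sites, with exact conditional binomial intervals, and levels have exact Poisson intervals, both on fragments (sites divided by 2). PCR duplicates and free DNA are not covered. A promoter is the sum of shared regions within 500 bp of any GENCODE start of the gene. Named regions were, per gene and class, the non-promoter region that rose most and the one that fell most among those with at least 100 sites. Other regions given with values were chosen after these were seen. From each list at most 3 genes up and 3 down with most sites were named. The code was tested on simulated counts. Alternatives changed the scaling, cell depth, doublets, clustering, site minimum and windows. The members and lists were chosen with earlier results of these data known. Tools were Python 3.11.15, pysam 0.24.0, leidenalg 0.10.2, scipy 1.17.1, numpy 2.4.6, scikit-learn 1.9.0 and pandas 2.3.3. The labels give the cell mixture as 5 to 1, and other descriptions of the study give other ratios.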

Additional observations from a re-analysis of the deposited data

Results flagged for a closer look

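At 2 genes the promoter changed in opposite directions in the 2 cell classes, with counting intervals clear of 0 in each, and the difference was not tested. The promoter of Cxcl1 changed by −0.29 in epithelial-like and by 1.13 in fibroblast-like cells. The promoter of Cxcl14 changed by −0.26 and by 0.22. Relative to the median of all promoters in epithelial-like cells these epithelial changes were 0.11 and 0.14, so their sign depends on what they are set against. Within fibroblast cluster 5 the Cxcl1 promoter changed by 0.80 and the Cxcl14 promoter by 0.18 (−0.13 to 0.49). As sites per cell the fibroblast change of Cxcl14 was −0.06 (−0.22 to 0.11), so that the opposite direction was lost there.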

How the results depend on the processing

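With 1 library per genotype no replicate could be left out, and precision is limited by the sites counted. No paired analysis was possible because each genotype had 1 library. Of 74 summaries under the alternatives 59 stayed within their limits and 15 moved, of 218 promoter changes 178 stayed, 37 moved and 3 reversed, and of 288 changes of named regions 247 stayed, 38 moved and 3 reversed. The cause of these moves was not tested unless fewer regions are named. In epithelial-like cells regions up 2-fold numbered 23 to 35 and, among the 55 within 5 kb, 12 were up and 5 down. Without clusters 11 and 15, 34 were up. In fibroblast-like cells the median change, over promoters with at least 20 sites, was 0.31 when cells were thinned to 5000 sites and 0.26 as sites per cell. It was 0.18 in cluster 5, where Ccl20 was under that minimum. Regions up there numbered 17 with each region counted once per cell (95 tested), 17 as sites per cell, 12 of 55 within 5 kb and 6 in cluster 5. Regions down numbered 3 thinned (59 tested), 3 counted once per cell, 12 as sites per cell, 3 with at least 100 sites (75 tested), 2 within 5 kb and 3 where the gene was the nearest (89 tested). Of all called epithelial regions 57.5% were up, against 47.4% with all peaks and 67.7% with median-of-ratios factors, and of fibroblast regions 60.7%, against 35.3% as sites per cell. The Csf1 promoter in epithelial-like cells turned to 0.01 when thinned, and the fibroblast Cxcl14 promoter to −0.06 as sites per cell. In fibroblast cluster 5, chosen after seeing the data, 4 changes reversed, to −0.06 at the Ccl2 promoter, 0.57 at the Cxcl14 exon region, −0.38 at the Ccl20 region 14687 bp upstream and 0.05 at the Csf1 region 31722 bp from the start.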

Other observations

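The 39 MOF cKO epithelial-like cells that lay in the clusters of the Control cells (1, 3 and 11) held 2510128 sites in shared regions. In them the region past the end of Ccl20 had 3.19 CPM from 8 sites (1.69, −0.23 to 3.13), the region 9635 bp before Il34 2.39 CPM from 6 sites (2.18, −0.20 to 3.84), and the region 9185 bp before Cxcl1 5.98 CPM from 15 sites (1.86, 0.70 to 2.99). The Control cells of these clusters had 0.985, 0.527 and 1.64 CPM. The Ccl2 regions 4931 and 2368 bp before its start were also higher, with 1.08 and 4.78 CPM (2.15, 0.64 to 3.34) and with 3.03 and 7.17 CPM (1.24, 0.09 to 2.20). Some other regions that gained in the class as a whole were not higher in these cells. The region 3537 bp before Tslp had 1.66 CPM in Control and 0.797 in the 39 cells (−1.06, −6.38 to 1.46), the region 8039 bp before Cxcl16 5.53 and 2.39 CPM (−1.21, −3.49 to 0.35), and the region 15866 bp before Csf1 12.4 and 11.6 CPM (−0.11, −0.90 to 0.67). Among regions that fell in the class, the one 18840 bp before Cxcl14 was higher in these cells, with 18.1 and 27.1 CPM (0.58, 0.04 to 1.07). The Cxcl14 promoter had 17.6 and 27.1 CPM (0.63, 0.09 to 1.12). The Cxcl14 region 14599 bp before the start changed by −0.42 (−1.23 to 0.29) and the Cxcl14 gene body region by −0.20 (−2.49 to 1.37). The Csf1 exon region was still lower (−1.70, −3.98 to −0.14). For the Ccl2 promoter the values were 2.38 CPM in the Control and 14.3 CPM in the MOF cKO cells, from 36 sites (2.59, 1.79 to 3.30), and for Cxcl12 6.17 and 13.5 CPM (1.14, 0.34 to 1.83). Cluster 11, which had a high doublet score, held 190 of the 276 Control sites at the Ccl2 promoter. Without it, a choice made after seeing the data, 34 MOF cKO cells had 13.6 CPM there from 28 sites against 0.877 CPM in Control (3.96, 2.97 to 4.85), and the Ccl2 region 2368 bp before the start changed by 2.04 (0.09 to 3.47). Of 112 regions of the 10 genes 17 were up and 17 down 2-fold in these cells, beside 16.0% of all regions in each direction.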
